A study of Rattus norvegicus with 12 samples.

Results

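The genes described here are the amino acid transporter families that rat liver and renal cortex draw on, followed after a short oral course of trichloroethylene (TCE), a chlorinated solvent. Members were the genes whose symbol starts with Slc1a, Slc3a, Slc6a, Slc7a, Slc36a, Slc38a or Slc43a and goes on with a digit, 53 of the 14217 genes that had a probe set with 1 symbol. They were covered by 72 probe sets, groups of short oligonucleotides that read a transcript, and each gene was read from its probe set with the highest mean over the 12 arrays. Slc7a6os, which lies on the opposite strand of Slc7a6 and encodes no transporter, met the naming rule and is counted among the 53. Slc6a19, the main neutral amino acid transporter of the brush border, was not analysed here.

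Male rats of 7 to 9 weeks, labelled both F-344 and Wistar-derived, were given TCE by mouth at 16 mg/kg per day for 3 days dissolved in 5 ml/kg of corn oil, while controls had the oil only. They were killed 24 h after the last dose, and a piece of liver and a piece of renal cortex (about 50 mg each, whole tissue) were taken from 3 TCE and 3 control rats. Labelled RNA was hybridised to GeneChip rat genome arrays, which gave 4 groups of 3 arrays, named below as liver or kidney with the replicate number of the labels. All values are deposited log2 expression values, whose lowest value is 2.17, and a probe set within 1 log2 unit of it is called near the lowest value.

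Amino acids cross membranes on carriers that differ in what drives them. Symporters of the Slc1, Slc6 and Slc38 families bring amino acids in together with sodium. Slc7 light chains trade one amino acid for another and need a heavy chain from the Slc3 family to reach the membrane. The cationic carriers of Slc7 are grouped apart from these light chains here. The Slc43 carriers work by facilitated diffusion and the Slc36 carriers with protons. In the proximal tubule the brush border takes filtered amino acids back through Slc3a1 with Slc7a9, and through Slc6 symporters, and the basolateral side releases them through Slc3a2 with Slc7a7 or Slc7a8. Hepatocytes take up alanine and glutamine mainly through Slc38 carriers, and several transporters, Slc38a2 among them, are known targets of the amino acid starvation response run by the transcription factor ATF4.

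The tissue labels were borne out by marker lists. The mean over 9 hepatocyte markers was 15.24 to 15.33 on the liver arrays and 4.89 to 8.22 on the kidney arrays, and the mean over 10 proximal tubule markers was 12.89 to 13.3 in kidney and 5.63 to 5.91 in liver. Arrays of one group correlated at 0.993 to 0.997 over probe sets. An array of each tissue stood apart in ways that touch the results below. Kidney control 2 had the highest hepatocyte markers of the kidney arrays, with Alb, the albumin gene, at 12.80 against 4.36 to 10.96 on the other 5, and liver control 1 had Asns, the asparagine synthetase gene of the starvation response, at 4.73 against 7.36 to 9.52 on the other 5 liver arrays.

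Of the 53 genes, 18 were near the lowest value on all 12 arrays, and 8 of those read 2.17, to 2 decimals, on every array. They included the 3 proton-coupled carriers measured (Slc36a1, Slc36a2 and Slc36a3), the cystine and glutamate exchanger Slc7a11, the cationic carriers Slc7a3, Slc7a4 and Slc7a14, the astrocytic glutamate carrier Slc1a3, Slc38a5, Slc7a10, and 8 Slc6 genes, most of them neurotransmitter carriers (Slc6a2, Slc6a3, Slc6a4, Slc6a5, Slc6a7, Slc6a11, Slc6a14 and Slc6a15). Slc1a2, the main glutamate carrier of brain, was at 2.17 on 11 arrays and at 3.20 in liver TCE 3. No expression was measurable for these genes with these probe sets, which does not show that the transcripts were absent. The other 34 genes passed the filter on low values in the comparisons of liver with kidney, 28 passed it in the liver fit, and 33 in the kidney fit, where Slc1a3 was included.

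**Figure D1:**
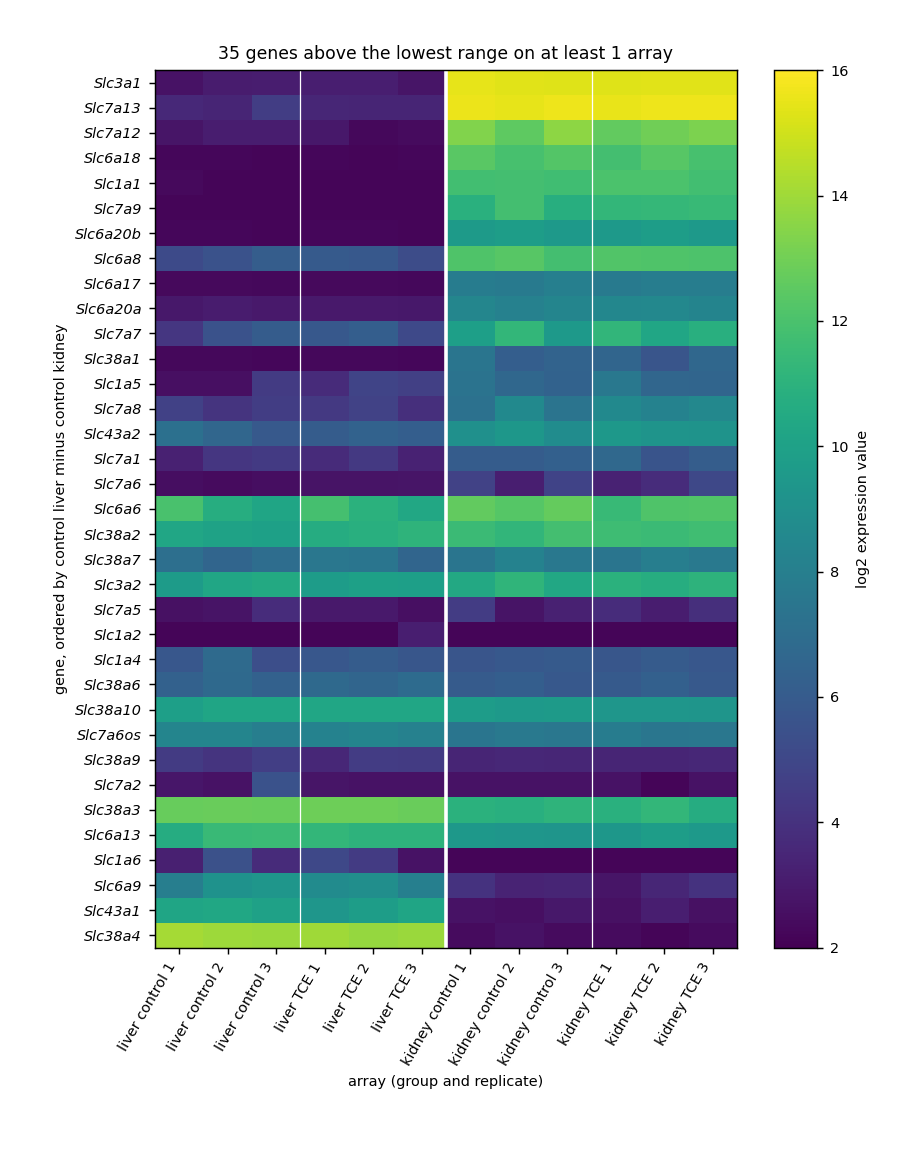
Log2 expression values of the 35 genes that were more than 1 log2 unit above the lowest value on at least 1 array, one row per gene and one column per array, from dark (near 2) to yellow (16). Rows run from genes highest in kidney (Slc3a1, 15.31 to 15.48 there) to genes highest in liver (Slc38a4, 13.77 to 14.13 there), and the TCE and control columns of a tissue look alike for most rows.

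Liver and renal cortex of control rats differed in 30 of the 34 genes tested (limma, adjusted p under 0.05), 20 of them higher in kidney and 10 higher in liver. That is 88.2%, and over all 10654 genes tested the share was 68.6% (38.9% higher in kidney and 29.7% higher in liver). The median difference, liver minus kidney, was -1.66 over the 34 genes and -0.0953 over all genes. A whole-tissue value does not tell fewer cells of a type from less RNA per cell, and the members passed the filter through the tissue where they are high, so the count describes the genes measured and not the families. Leaving out kidney control 2 gave 28 calls and leaving out liver control 1 gave 30.

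The brush border exchanger was a kidney signal. Slc3a1, its heavy chain, read 15.48, 15.37 and 15.33 in control kidney and 2.67, 3.04 and 3.13 in control liver, a log2 difference of -12.45 ± 0.14 (SE, limma adjusted p 3.79e-08). Slc7a9, its light chain, read 10.86, 11.82 and 10.77 in kidney and 2.17 on every control liver array, a difference of -8.98 ± 0.29 (limma adjusted p 2.14e-06). Liver sat near the lowest value for both genes, so these differences are less exact than their SE. Slc7a13, an aspartate and glutamate carrier that also pairs with Slc3a1, read 15.50 to 15.66 in control kidney and 3.46 to 4.56 in control liver (difference -11.71 ± 0.29). Slc7a12, a neutral amino acid exchanger, read 12.53 to 13.62 and 2.78 to 3.13 (difference -10.15 ± 0.30). No kidney value of these 4 genes came near a liver value.

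The sodium-coupled Slc6 symporters of neutral and imino amino acids followed the same order, with 4 of 6 higher in kidney and the other 2 near the lowest value everywhere. Slc6a18, a brush border carrier of glycine and other neutral amino acids, read 12.41, 11.95 and 12.23 in control kidney and 2.21 to 2.22 in control liver, a difference of -9.98 ± 0.13 (limma adjusted p 6.28e-08). Slc6a20b and Slc6a20a, closely related copies of the imino acid carrier gene whose transcripts the probes may share, differed by -7.47 ± 0.08 and -5.35 ± 0.11. A second probe set of Slc6a20a gave -2.21, and the mean of both gave -3.78. Slc6a17, best known from synaptic vesicles, read 7.77 to 8.02 in control kidney on its brightest probe set, a difference of -5.55 ± 0.09. A second probe set of Slc6a17 gave -1.37 and the other 3 were near the lowest value in both tissues, so the level of this gene in kidney rests on 1 probe set. The glutamate and aspartate carrier Slc1a1 read 11.71 to 11.84 in control kidney and 2.17 to 2.34 in control liver (difference -9.54 ± 0.08), and its second probe set gave -8.15.

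Promoter windows (the 250 bases before a RefSeq transcript start, GRCr8) were found for 41 of the 53 genes. They were searched on both strands for letters of sites known for liver and kidney factors. GTTAAT, the short form of the site of HNF1, was in 3 of the 17 kidney-higher genes with a window (Slc6a18, Slc6a20b and Slc7a12) and in 0 of the 7 liver-higher genes. It was in 6.45% of all 33469 windows. Among all 41 genes with a window it was in the same 3. CAAAGTCCA, a site of HNF4 that does not overlap the first, was in Slc3a1 and in 0.338% of windows. TGATGNAA, the element of the starvation response, was in Slc1a4, Slc38a1 and Slc7a1 and in 3.4% of windows. A gene was counted when any of its windows held a match, while the shares are of single windows, so the counts and shares cannot be compared directly. The following windows belong to 3 of the genes with the largest kidney excess, all 3 with a match. The others belong to Slc38a4, which had the largest liver excess, and to Slc38a2, which had the smallest p after TCE in liver. Slc7a13, Slc1a1 and Slc7a9, also among the largest kidney excesses, had no match or no window. Capitals mark the match, which reads on the reverse strand in Slc3a1 (TGGACTTTG) and Slc6a18 (ATTAAC), and Slc38a4 and Slc38a2 held none of the searched letters in this window.
Slc3a1, chr6:15394750-15394999, minus strand: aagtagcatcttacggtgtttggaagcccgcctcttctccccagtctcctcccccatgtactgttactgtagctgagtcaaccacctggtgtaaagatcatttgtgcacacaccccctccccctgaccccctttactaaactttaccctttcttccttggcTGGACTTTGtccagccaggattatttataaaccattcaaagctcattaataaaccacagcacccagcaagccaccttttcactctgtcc
Slc7a12, chr2:88868104-88868353, minus strand: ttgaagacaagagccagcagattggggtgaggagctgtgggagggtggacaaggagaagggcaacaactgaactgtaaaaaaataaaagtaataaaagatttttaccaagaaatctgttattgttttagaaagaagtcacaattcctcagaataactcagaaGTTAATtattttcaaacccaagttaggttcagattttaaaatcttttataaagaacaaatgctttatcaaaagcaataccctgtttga
Slc6a18, chr1:31436403-31436652, plus strand: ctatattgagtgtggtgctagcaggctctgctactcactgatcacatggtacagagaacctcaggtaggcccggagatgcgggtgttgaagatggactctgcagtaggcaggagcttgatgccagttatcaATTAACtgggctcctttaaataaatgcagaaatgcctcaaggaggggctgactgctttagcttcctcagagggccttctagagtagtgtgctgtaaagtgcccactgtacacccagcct
Slc38a4, chr7:130082170-130082419, minus strand: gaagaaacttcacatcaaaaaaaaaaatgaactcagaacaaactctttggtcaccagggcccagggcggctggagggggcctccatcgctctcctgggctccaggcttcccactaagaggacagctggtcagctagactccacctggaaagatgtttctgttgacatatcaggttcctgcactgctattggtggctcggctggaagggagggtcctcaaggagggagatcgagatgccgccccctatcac
Slc38a2, chr7:129742620-129742869, minus strand: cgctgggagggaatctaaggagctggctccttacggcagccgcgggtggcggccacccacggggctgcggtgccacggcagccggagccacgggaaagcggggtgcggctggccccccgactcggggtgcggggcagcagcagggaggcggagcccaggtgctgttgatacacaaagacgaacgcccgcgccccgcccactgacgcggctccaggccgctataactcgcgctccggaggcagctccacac
A match is a run of letters and no measured site, and nothing about a factor follows from it.

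The basolateral exchangers were split. Slc3a2, the shared heavy chain, read 10.47, 11.18 and 10.40 in control kidney and 9.71, 10.30 and 10.52 in control liver, values that overlapped (difference -0.51 ± 0.30, limma adjusted p 0.177). Its light chain Slc7a7, which releases cationic amino acids, differed by -4.97 ± 0.65, and Slc7a8, a large neutral amino acid exchanger, by -3.32 ± 0.41, both higher in kidney. Slc7a6, a relative of Slc7a7, read 4.77, 3.16 and 4.80 in kidney and 2.41 to 2.50 in liver (difference -1.77 ± 0.46). Slc7a5, the light chain typical of growing cells, read 2.76 to 4.47 in kidney and 2.65 to 3.75 in liver and was not called (limma adjusted p 0.44). So the heavy chain was well measured in both tissues, and 3 of the 5 light chains grouped with it here were higher in kidney. Slc7a10, which was grouped with the neutral amino acid exchangers and was near the lowest value on all 12 arrays, is not among the 5.

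The cationic carriers and the Slc1 exchangers of neutral amino acids did not share one order. Slc7a1, the widespread arginine and lysine carrier, read 6.06 to 6.32 in control kidney and 3.30 to 4.37 in control liver (difference -2.18 ± 0.30, limma adjusted p 0.00105). Slc7a2, the cationic carrier known from hepatocytes, was near the lowest value on 11 arrays and read 5.54 in liver control 3. Slc1a5, a glutamine exchanger, read 6.41 to 7.33 in control kidney and 2.60, 2.60 and 4.44 in control liver (difference -3.59 ± 0.57). Its relative Slc1a4 read 5.35 to 6.85 in liver and 5.68 to 5.95 in kidney, which overlapped.

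The creatine and taurine carriers were the other kidney-higher members of Slc6. Slc6a8, which carries creatine, read 11.84 to 12.37 in control kidney and 5.16 to 6.15 in control liver (difference -6.49 ± 0.28). Slc6a6, which carries taurine, read 12.62, 12.30 and 12.70 in kidney and 11.99, 10.72 and 10.25 in liver (difference -1.55 ± 0.45). The liver values of Slc6a6 were spread over more than 1 log2 unit, with liver control 1 the highest. Its second probe set gave -0.75.

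The largest liver excess was that of a single Slc38 gene. Slc38a4, a neutral amino acid carrier of hepatocytes, read 14.13, 13.94 and 13.91 in control liver and 2.39, 2.68 and 2.39 in control kidney, a difference of 11.51 ± 0.12 (limma adjusted p 3.08e-08). All kidney values of this gene were near the lowest value. The highest was 2.68 in kidney control 2, the array with the highest hepatocyte markers, but Slc43a1, another liver-higher gene, was lowest on that array, at 2.55. Slc38a3, a glutamine carrier, read 12.72 to 12.80 in liver and 10.84 to 11.13 in kidney (difference 1.78 ± 0.09), so it was well measured in both tissues. Slc38a10, Slc38a6 and Slc38a9, the last an arginine sensor of the lysosome, were higher in liver by 0.50 ± 0.12, 0.46 ± 0.15 and 0.86 ± 0.14. Against these 5, 3 Slc38 genes were higher in kidney. Slc38a1 and Slc38a2, carriers of small neutral amino acids, gave liver minus kidney differences of -4.41 ± 0.33 and -1.42 ± 0.17, and the lysosomal glutamine carrier Slc38a7 gave -0.85 ± 0.25. Slc38a1 rests on 1 of 3 probe sets, since the other 2 were near the lowest value in both tissues.

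The remaining liver-higher genes came from other families. Slc43a1, a facilitated carrier of branched-chain amino acids, read 10.23, 10.32 and 10.00 in control liver and 2.55 to 2.89 in control kidney (difference 7.47 ± 0.13), while its relative Slc43a2 was higher in kidney (difference -2.53 ± 0.35). Slc6a9, a glycine carrier, read 7.98, 9.15 and 9.34 in liver and 3.37 to 4.04 in kidney (difference 5.20 ± 0.40). Its other 2 probe sets gave 2.77 and 2.91. Slc6a13, a carrier of GABA and taurine, read 10.69 to 11.56 and 9.31 to 9.49 (difference 1.85 ± 0.24). Slc1a6, a glutamate carrier, read 3.22, 5.45 and 3.71 in liver and 2.17 in kidney. Its call was lost when any 1 of the control kidney arrays was left out (limma adjusted p 0.0676 to 0.0688), and that of Slc38a6 when kidney control 1, kidney control 3 or liver control 2 was (0.0704 to 0.108), and both were lost with no filter on low values. In TCE rats the call of Slc1a6 was lost under more settings, with no filter and when any array but liver TCE 3 was left out, at a limma adjusted p of up to 0.0902. Slc7a6os, the gene that is no transporter, was 0.70 ± 0.13 higher in liver.

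The tissue order was measured again in the TCE rats, whose arrays are separate from the control arrays. There 29 of the same 34 genes were called, 20 higher in kidney and 9 higher in liver, and the share over all 10642 genes was 67.6% (36.8% and 30.8%). In all, 27 genes were called with the same direction in both sets of rats, 18 higher in kidney and 9 higher in liver. The share of all genes called in both with the same direction is not given, so this count is no result about the families. The size of the difference was close for the leading genes: Slc3a1 gave -12.29 ± 0.12, Slc7a9 -9.17 ± 0.08, Slc6a18 -9.83 ± 0.15 and Slc38a4 11.57 ± 0.10. Slc6a6, Slc38a7 and Slc38a9 were called in control rats alone, with 0.109, 0.172 and 0.0601 as limma adjusted p in TCE rats. Of these, Slc38a9 was called in TCE rats too under 5 of 14 alternatives (lowest limma adjusted p 0.000546): quantile normalization, median centring, the looser threshold, all 12 arrays in the fit, and without liver TCE 1. Slc3a2 and Slc7a5 were called in TCE rats alone, at -1.03 ± 0.11 and -0.76 ± 0.23, and Slc1a4 and Slc7a2 in neither. The difference between the 2 contrasts is the difference of TCE effects tested below, which passed for none of these 7 genes.

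**Figure D2:**
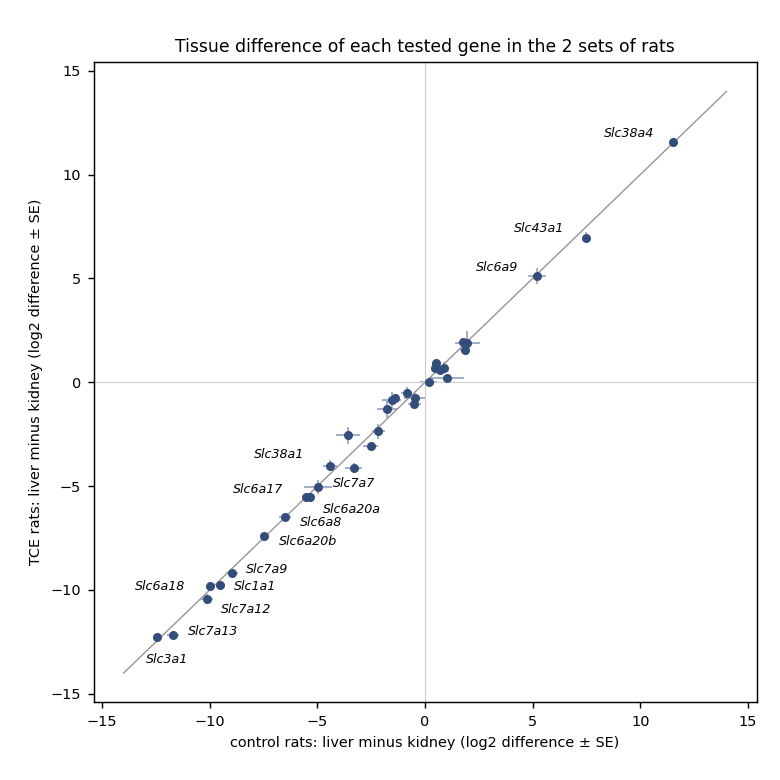
Liver minus kidney in log2 units for the 34 genes tested, in control rats (horizontal axis) and TCE rats (vertical axis), each point a gene with its SE from limma (3 against 3 arrays) and the line marking equal differences. Points run from Slc3a1 at -12.45 and -12.29 to Slc38a4 at 11.51 and 11.57.

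TCE was compared with corn oil in liver first. Of the 28 transporter genes tested, 0 passed an adjusted p of 0.05 (limma, smallest adjusted p 0.165), as did 0 (0%) of all 10552 genes. At an unadjusted p under 0.05 there were 2 transporter genes, 7.14%, both higher with TCE, where the share over all genes was 14.7% (8.81% higher and 5.84% lower). In 3 genes (10.7%), again all higher, the values of the groups did not overlap, where the share over all genes was 20.5% (12.2% higher). The differences ran from -0.98 to 1.19 with a median of -0.0958, against 0.0338 over all genes. Both shares lay below those over all genes.

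Slc38a2, the system A carrier that brings small neutral amino acids into cells and is known to be induced when amino acids run short, had the smallest p. It read 10.66, 10.84 and 11.11 in TCE livers and 10.27, 10.08 and 9.95 in control livers. Every TCE array lay above every control array, and the difference was 0.77 ± 0.15 on the log2 scale, or 1.71-fold (limma p 0.00269, adjusted p 0.165). Over all alternatives the difference was 0.65 to 1.43 and the adjusted p 0.0509 to 0.635. In kidney the same probe set read 11.67, 11.52 and 11.68 with TCE and 11.53, 11.22 and 11.82 without, which overlapped (difference 0.11 ± 0.16).

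Slc7a6 read 2.73, 2.76 and 2.82 in TCE livers and 2.50, 2.41 and 2.50 in control livers, a difference of 0.30 ± 0.06 (limma p 0.00424, adjusted p 0.188). All 6 values were near the lowest value, where the spread between arrays is compressed. Slc38a10, a carrier of the Slc38 family, read 10.28 in all 3 TCE livers and 9.91, 10.25 and 10.21 in control livers, which did not overlap either, with a difference of 0.16 ± 0.11 (limma adjusted p 0.527).

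Of the other preset genes in liver, none had an unadjusted p under 0.05. Slc1a5 read 3.71, 4.85 and 4.63 with TCE and 2.60, 2.60 and 4.44 without (difference 1.19 ± 0.61, limma adjusted p 0.424), and 1 control array, liver control 3, lay among the TCE arrays. Without it the difference was 1.80 (limma p 0.00741). Slc43a1 read 9.34, 9.77 and 10.22 with TCE and 10.23, 10.32 and 10.00 without (difference -0.40 ± 0.24), with TCE 3 inside the control range. Without liver TCE 3 it was -0.63 (limma p 0.0218), and with the Gapdh gap described below as a covariate it turned to 0.77. Slc3a2 read 9.75, 9.94 and 9.92 with TCE and 9.71, 10.30 and 10.52 without (difference -0.31 ± 0.22). The abundant hepatocyte carriers were close between groups: Slc38a3 differed by 0.11 ± 0.06 and Slc38a4 by -0.11 ± 0.10. Slc7a2 had the lowest value of the comparison, -0.98 ± 0.80, which rests on liver control 3 and was -0.05 without it.

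Liver control 1 stood apart in 3 of the 28 genes tested, by over 1 log2 unit from both other control livers: Slc7a7 and Slc6a9 were lower there and Slc6a6 was higher. Slc7a7 read 4.21 there, against 5.53 and 6.07 in the other control livers and 5.09 to 6.20 with TCE, and Slc6a9 read 7.98, against 9.15 and 9.34 and 8.03 to 8.94. The other probe sets of Slc6a9 read 4.01 and 3.02 on that array and 5.96 to 6.26 on the other 2 control arrays. With TCE one of them read 5.51, 4.75 and 3.40 and the other 3.05, 3.17 and 2.21, the latter as low as liver control 1, and they gave TCE minus control differences of -0.86 and -2.27, against -0.26 for the main probe set. Of 31 starvation response genes on the array, liver control 1 was the lowest control in 23, the highest in 6 and between or tied in 2. Of the 28 transporter genes tested it was the lowest in 12, the highest in 7 and between or tied in 9. The share over all genes was not counted, so these counts are no result about either set. Some gaps were small, such as that of Eif2ak4, at 6.91 against 6.95 and 6.98. Among the starvation response genes liver control 1 was lowest by over 1 log2 unit in 5, Asns, Chac1, Psat1, Phgdh and Fgf21, and highest by that much in 0. Asns was at 4.73 against 8.37 and 9.52, Phgdh, which starts serine synthesis, was at 3.63 against 6.57 and 8.34, and Fgf21, a hepatic fasting hormone, was at 2.56 against 6.90 and 5.98. Slc38a2 did not share this, since liver control 1 was its highest control value. Without liver control 1, 5 transporter genes had an unadjusted p under 0.05 (Slc38a2 at 0.86, Slc7a6 at 0.32, Slc3a2 at -0.54, Slc6a13 at -0.38 and Slc7a12 at -0.60), with 12.3% of all genes, and limma called 0 transporter genes and 0% of all genes. Without liver control 3 or liver TCE 3 there were 4, and the share over all genes is not given for those settings. The part of liver control 1 in the results was not tested.

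**Figure D3:**
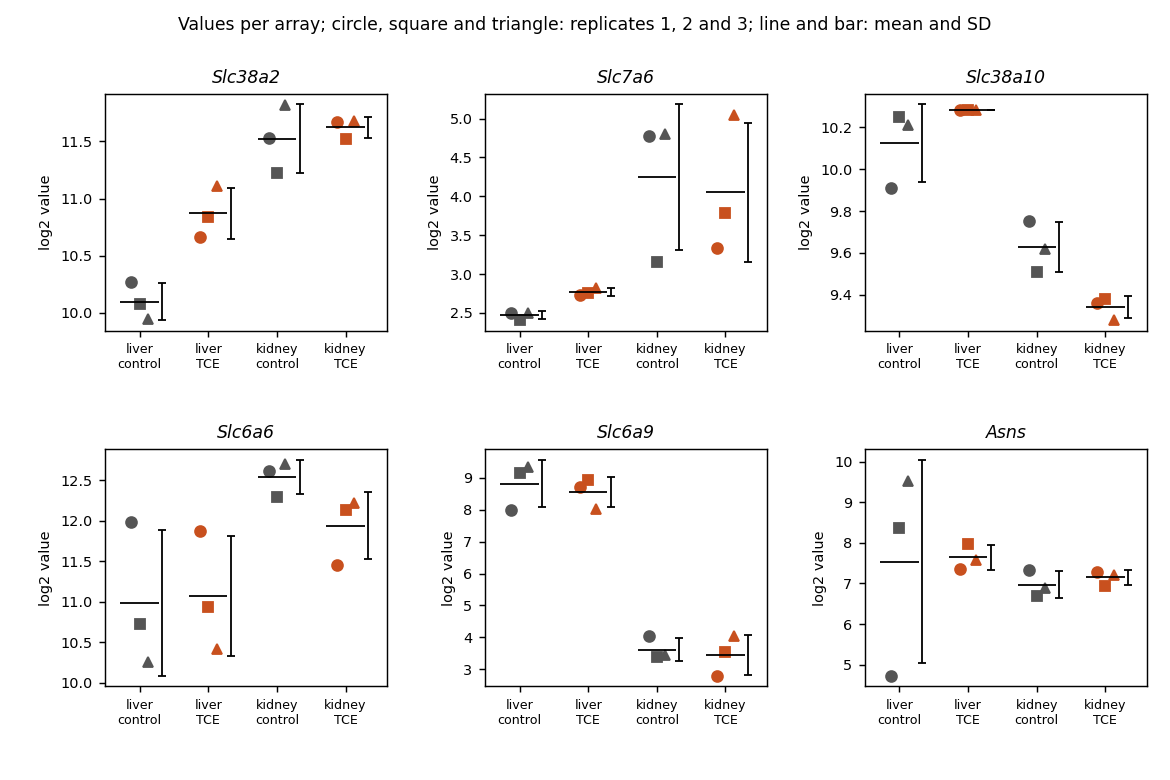
Log2 values on each array for Slc38a2, Slc7a6, Slc38a10, Slc6a6, Slc6a9 and, from the starvation response, Asns, by tissue and treatment, with the mean (line) and SD (bar) of each group of 3. For Slc38a2 the 3 TCE livers (10.66 to 11.11) lie above the 3 control livers (9.95 to 10.27), and for Asns liver control 1 lies at 4.73, below every other array.

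In kidney 33 transporter genes were tested and 0 passed an adjusted p of 0.05 (limma, smallest adjusted p 0.264), as did 0 (0%) of all 10563 genes. At an unadjusted p under 0.05 there were 2 genes, both lower with TCE, and these were also the 2 whose groups did not overlap. That is 6.06% for each rule, where the shares over all genes were 14.8% (7.56% higher and 7.26% lower) and 20.1% (9.81% lower). The differences ran from -0.60 to 0.71, with a median of 0.0287 against 0 over all genes.

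Slc38a10 read 9.36, 9.38 and 9.28 in TCE kidneys and 9.75, 9.51 and 9.62 in control kidneys, a difference of -0.29 ± 0.08 (limma p 0.0147, adjusted p 0.264). All TCE values lay below all control values, and the alternatives gave -0.34 to -0.16. Slc6a6, the taurine carrier, read 11.46, 12.14 and 12.22 with TCE and 12.62, 12.30 and 12.70 without (difference -0.60 ± 0.23, limma p 0.0469, adjusted p 0.333). Kidney TCE 1 was its lowest array, and without it the difference was -0.36. The second probe set of Slc6a6 read 9.59, 9.65 and 10.17 with TCE and 10.34, 9.90 and 10.21 without, with the same sign and overlapping groups. In liver its 2 probe sets disagreed in sign, at 0.09 and -0.30.

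The brush border exchanger did not pass any threshold in kidney. Slc3a1 read 15.31, 15.38 and 15.35 with TCE and 15.48, 15.37 and 15.33 without (difference -0.05 ± 0.06), and Slc6a18 read 11.83, 12.37 and 11.93 against 12.41, 11.95 and 12.23 (difference -0.15 ± 0.19). Slc1a1 read 12.01, 12.01 and 11.78 against 11.75, 11.84 and 11.71 (difference 0.17 ± 0.09), and its second probe set gave -0.06, the other sign. These values overlapped between groups. Slc1a1 and Slc3a1 had some of the narrowest spreads, with SDs from 0.0328 to 0.133 over 3 arrays.

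Kidney control 2 stood apart in part of the basolateral group. Slc7a7 read 11.29 there, against 9.91 and 9.51 in the other control kidneys and 11.19, 10.30 and 10.82 with TCE. Slc7a8 read 8.65, against 7.20 and 7.40 and 8.67, 8.18 and 8.54, and Slc3a2 read 11.18, against 10.47 and 10.40 and 10.96, 10.73 and 11.03. The light chain Slc7a9 of the brush border did so too, at 11.82 against 10.86 and 10.77 and 11.26, 11.32 and 11.46. In these 4 genes kidney control 2 lay with or above the TCE arrays and the other 2 control arrays below them, so the groups overlapped through 1 array. The other light chains grouped with Slc3a2 here did not follow. Kidney control 2 was the lowest control for Slc7a6, at 3.16 against 4.77 and 4.80, and for Slc7a5, at 2.76 against 4.47 and 3.31, and Slc7a11 was near the lowest value. Slc7a12 was also lowest there among controls, with 12.53 against 13.34 and 13.62, and read 12.63 to 13.23 with TCE.

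**Figure D4:**
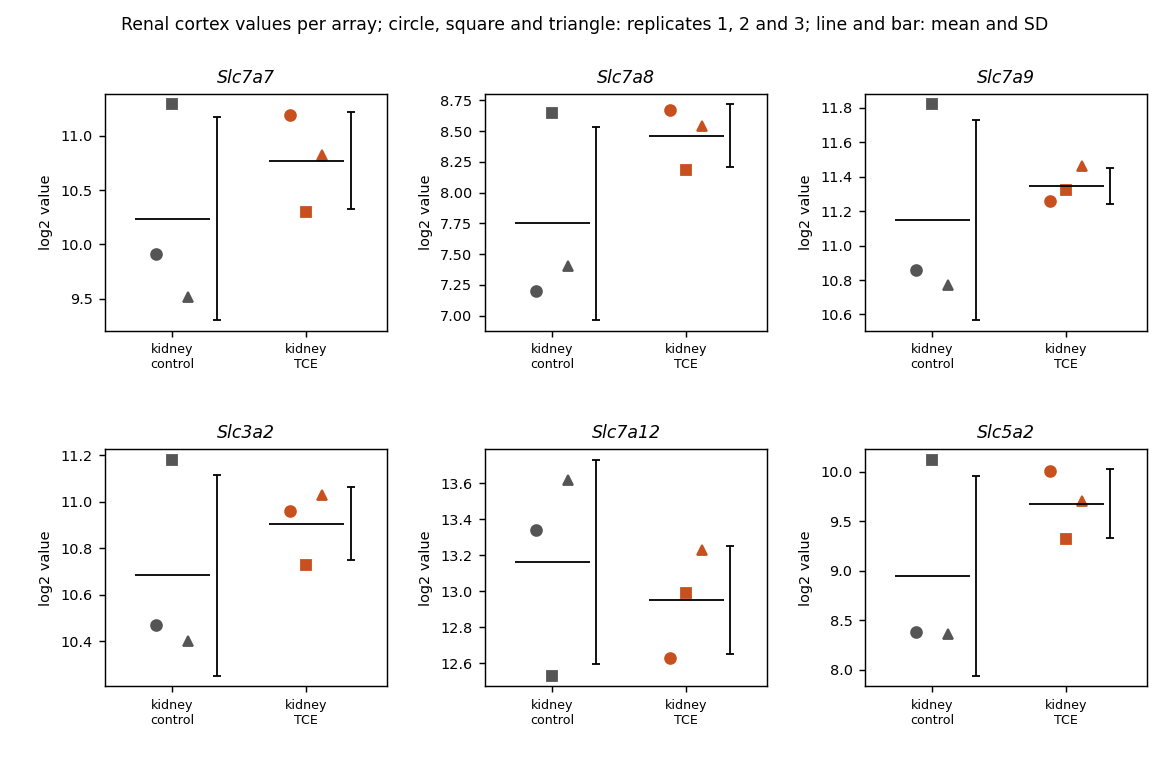
Log2 values of Slc7a7, Slc7a8, Slc7a9, Slc3a2, Slc7a12 and the glucose carrier Slc5a2 on each renal cortex array (control grey, TCE orange), with the mean (line) and SD (bar) of 3 arrays. Kidney control 2, the grey square, is the highest control array in every panel except that of Slc7a12, where it is the lowest at 12.53.

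With all 6 kidney arrays the differences were 0.53 ± 0.51 for Slc7a7, 0.71 ± 0.41 for Slc7a8, 0.20 ± 0.29 for Slc7a9 and 0.22 ± 0.23 for Slc3a2. Without kidney control 2 they were 1.06, 1.16, 0.53 and 0.47, each at an unadjusted p under 0.05, with Slc43a2 at 0.34, Slc38a10 at -0.34 and Slc6a6 at -0.71 making 7 such genes. With the Gapdh gap as a covariate on all 6 arrays the first 4 turned to -0.59, -0.13, -0.28 and -0.29. Without kidney control 2 the share over all genes was 15.8%, limma called 0 transporter genes and 0% of all genes, and the smallest adjusted p among the transporters was 0.199. Leaving out another array gave 1 such gene, or 3 without kidney TCE 3, and the share over all genes is not given for those settings. Slc5a2, the glucose carrier of the early proximal tubule, read 10.12 in kidney control 2, 8.38 and 8.36 in the other controls and 9.32 to 10.01 with TCE, and Slc15a1, a peptide carrier, read 7.34, 4.74 and 5.60 and 6.28 to 7.60. The 10 proximal tubule markers, Slc5a2 among them, averaged 13.30 in kidney control 2, 12.90 and 12.89 in the other controls and 13.14 to 13.20 with TCE. Kidney control 2 was the highest control for each of them except Lrp2 (14.40 against 14.41 and 14.29) and Aqp1 (14.05 against 14.35 and 14.16). The mean over 3 markers of the late proximal tubule (S3) was lowest there, at 6.50 against 6.63 and 7.10, with 1 of the 3 near the lowest value. The part of tubule segment, hepatocyte RNA or this array in these values was not tested.

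**Figure D5:**
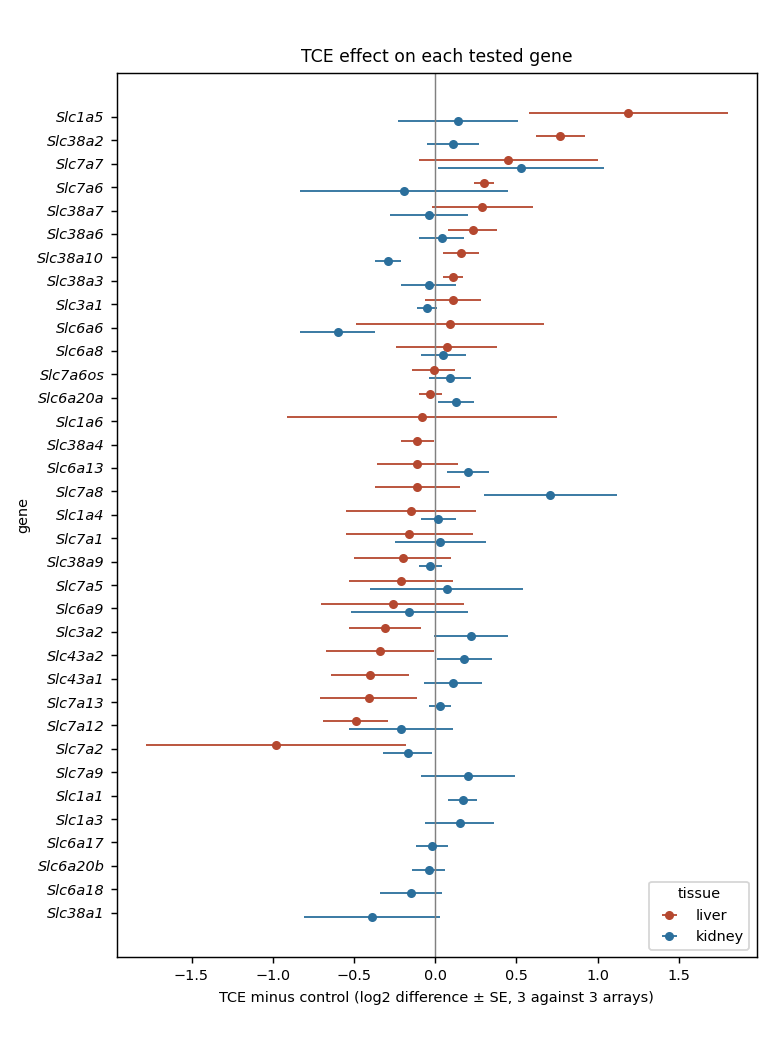
TCE minus control in log2 units with the SE from limma for every transporter gene tested, in liver (red, 28 genes) and kidney (blue, 33 genes), 3 arrays against 3. Values run from -0.98 to 1.19 in liver and from -0.60 to 0.71 in kidney, and none passed an adjusted p of 0.05.

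The TCE effect in liver minus that in kidney was tested over all 12 arrays, which treats tissues of one rat as independent. It passed for 0 of 34 transporter genes (limma) and for 0.535% of all 10652 genes, and 2 transporter genes (5.88%) had an unadjusted p under 0.05, where 17.5% of all genes did (9.99% in that direction). Slc38a10 gave 0.45 ± 0.14 (limma p 0.0106, adjusted p 0.166) and Slc38a2 0.67 ± 0.23 (limma p 0.0153, adjusted p 0.188). For both, the TCE minus control difference was higher in liver than in kidney, at 0.16 and -0.29 for Slc38a10 and at 0.77 and 0.11 for Slc38a2. The level of Slc38a2 itself was lower in liver than in kidney, by -1.42 in control rats and -0.75 in TCE rats. The next 4 by p were Slc1a1 at -0.22 ± 0.12, Slc43a1 at -0.52 ± 0.31, Slc7a8 at -0.82 ± 0.50 and Slc3a2 at -0.53 ± 0.33, with limma adjusted p of 0.369 to 0.434.

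Other measures moved with treatment beside these genes, and their part in the values above was not tested. The gap between the 3' and 5' control probe sets of Gapdh, a sign of RNA integrity, was 1.49 ± 0.254 in TCE livers and 0.814 ± 0.0398 in control livers (SD, n = 3 each; two-sided exact permutation p 0.1, the smallest possible). In kidney it was 0.655 ± 0.189 and 0.971 ± 0.11 (two-sided exact permutation p 0.2). The same gap of Actb was 5.33 ± 0.306 in TCE and 4.64 ± 0.521 in control livers (p 0.3, same test), and 4.31 ± 0.093 in TCE and 4.48 ± 0.0795 in control kidneys, which did not overlap (p 0.1, same exact test). The mean over the 5 of 7 podocyte markers on the array was 8.50 to 8.82 in TCE kidneys and 7.94 to 8.17 in control kidneys, with all 5 higher and 0 near the lowest value. The mean over 9 mesenchymal markers was 6.66 to 6.98 in TCE livers and 6.17 to 6.35 in control livers, with 8 of 9 higher, and 1 marker was near the lowest value in TCE livers and 2 in control livers. The mean over the 3 of 5 erythroid markers on the array was 7.04 to 7.73 in TCE livers and 7.87 to 8.31 in control livers, with both tested markers lower (Hbb -0.74 ± 0.19, Alas2 -1.33 ± 0.45) and the third near the lowest value. In kidney all 8 hepatocyte markers tested were lower with TCE, with a median of -1.53, means over 9 markers of 4.89 to 6.32 with TCE and 5.41 to 8.22 without, and overlapping groups in each. The 5 macrophage markers tested in kidney were higher with TCE, with a median of 0.289 and means over the 6 on the array of 4.60 to 5.01 with TCE and 4.58 to 4.65 without. These means overlapped, and 1 marker had an unadjusted p under 0.05 (limma). Of the 6, 1 was near the lowest value in TCE kidneys and 2 in control kidneys.

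Genes around the transporters passed no adjusted threshold either (limma, 0 called in every list and tissue). Of the starvation response, 30 genes were tested in liver, with 1 at an unadjusted p under 0.05 (Ddit3, a stress transcription factor, 0.40 ± 0.09), and 27 in kidney, with 2 higher and 2 lower. The 2 higher kidney genes were Xpot, a tRNA exporter, at 0.28 ± 0.06 and Atf4 itself at 0.30 ± 0.10, and the 2 lower ones were Gars1, a tRNA synthetase, at -0.22 ± 0.07 and Ppp1r15a, which restarts translation after stress, at -0.42 ± 0.16. The medians of this list were 0.0123 in liver and 0.0588 in kidney, against 0.0338 and 0 over all genes.

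Amino acid carriers outside the 7 families numbered 15 tested genes in liver (1 higher and 1 lower at an unadjusted p under 0.05) and 16 in kidney (2 and 2). The cystine exporter of the lysosome, Ctns, stood at 0.40 ± 0.13 in liver. In kidney the lower genes were the lysosomal cationic carrier Slc66a1 at -0.33 ± 0.06 and Slc25a44 at -0.20 ± 0.06. The higher ones were Cltrn, a partner that brings Slc6 carriers to the brush border, at 0.41 ± 0.12 and Slc15a4 at 0.72 ± 0.22. Slc15a4 was the lower gene in liver, at -0.33 ± 0.13. Of the 23 genes of amino acid sensing at the lysosome by mTORC1, 2 were higher and 2 lower in liver. The lower ones were Seh1l at -0.39 ± 0.11 and Sesn1, a leucine-binding stress protein, at -1.10 ± 0.37. The higher ones were Wdr24 at 0.24 ± 0.08 and Rragc at 0.16 ± 0.06. Sesn1 read 8.17 in liver control 1, 6.99 and 7.01 in the other control livers and 6.64, 6.14 and 6.11 with TCE, so part of its difference rests on that control array. In kidney 2 were higher and 1 lower, led by Lamtor5 at 0.37 ± 0.10.

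Enzymes of amino acid breakdown gave 2 lower genes of 37 in liver, Aldh4a1 of proline breakdown at -0.29 ± 0.07 and Bckdk, the kinase that restrains branched-chain breakdown, at -0.22 ± 0.09. In kidney 1 was higher and 3 lower of 35, led by serine dehydratase, Sds, at -0.93 ± 0.19. In liver 25 of the 37 had a difference below 0, and the median was -0.05 against 0.0338 over all genes. The shares of these 4 lists at an unadjusted p under 0.05 are to be read against 14.7% of all genes in liver and 14.8% in kidney. The carriers outside the families in kidney (2 higher and 2 lower of 16) lay above that share. So did the mTORC1 genes in liver (2 and 2 of 23). The starvation response in kidney (2 and 2 of 27) lay at it, and the others lay below. No list was tested as a set.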

How the data were processed

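Total RNA from the 12 pieces of tissue was measured on GeneChip Rat Genome arrays, per the labels' protocols. The values deposited by the authors are log2 expression values of 31099 probe sets, made with affy and limma per the submitters' processing notes; how background was corrected and arrays normalized is not given in those notes as supplied, and the scale was inferred from the values' range. Treated arrays are those with the title word case. Probe sets with 1 symbol in GEO's platform annotation were used, without 57 control probe sets. Genes with a mean over the arrays of a fit above the 40th percentile of probe sets were tested with limma 3.58.1 in R 4.3.3 (lmFit, eBayes, two-sided, Benjamini-Hochberg over all genes, threshold 0.05), without covariates, and the code was tested on simulated data. SE is limma's moderated standard error. Single values were compared by exact permutation, whose smallest p with 3 against 3 is 0.1. Arrays were numbered as in the labels; both tissues came from the same 6 rats, but no label says that equal numbers mark one rat. The number of arrays limits the precision. Members and lists were chosen with earlier results of these data known. Named were the largest tissue differences, genes with an unadjusted p under 0.05 and no overlap, the smallest p of the difference of effects, up to 3 genes a list and preset transporters; Slc6a9, Slc7a12, Slc5a2 and Slc15a1, and the markers and starvation genes given for single arrays, were named after their values were seen. Alternatives were no filter, a 60th percentile filter, averaging all probe sets of a gene, renewed quantile normalization, median centring, trend and robust variances, a threshold of 0.1, a replicate block, all 12 arrays, the Gapdh gap as a covariate and leaving out each array. Marker lists are given where they bear on a value.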

Additional observations from a re-analysis of the deposited data

How the results depend on the processing

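The counts of transporter genes called kept to their side under every alternative run: 0 for TCE in each tissue and for the difference of effects, 22 to 30 for liver against kidney in control rats and 21 to 31 in TCE rats, the lowest with the 60th percentile filter, which tests fewer genes. The difference of effects was not run with the Gapdh gap, and the tissue comparisons were not either. With the replicate block the counts were 0 for TCE in liver, 0 in kidney and 0 for the difference. They were 29 for control tissues and 28 for TCE tissues. Pairing was checked on the deviations of each gene from the mean of its group, not on whole values. Deviations of same-numbered TCE and control arrays correlated at -0.08 to 0 in liver and -0.09 to 0.01 in kidney, so the numbers do not pair the treatment groups. Deviations of same-numbered liver and kidney arrays correlated at 0.05 to 0.08 in control rats (different numbers -0.06 to -0.01). In TCE rats they correlated at -0.01 to 0.06 (different numbers -0.07 to 0.05). All lay under the 0.1 taken as pairing, so whether a number marks the same rat in both tissues was not settled. Of 76 single-gene values 58 kept their sign. With the Gapdh gap as a covariate, which differs between the groups, the liver TCE differences turned for Slc3a1 (-0.50), Slc7a7 (-1.14), Slc38a3 (-0.02) and Slc43a1 (0.77). In kidney they turned for Slc7a9 (-0.28), Slc3a2 (-0.29), Slc7a5 (-0.01), Slc7a7 (-0.59), Slc7a8 (-0.13), Slc7a1 (-0.40), Slc6a18 (0.33), Slc1a5 (0.00) and Slc38a3 (0.41). Leaving out 1 array moved the liver difference across 0 for Slc3a1 (-0.02 to 0.23), Slc7a7 (-0.08 to 0.85), Slc7a8 (-0.32 to 0.10), Slc7a5 (-0.41 to 0.14) and Slc7a1 (-0.50 to 0.08). In kidney it did so for Slc7a1 (-0.25 to 0.30), Slc7a5 (-0.31 to 0.54), Slc38a2 (-0.05 to 0.25), Slc1a5 (-0.20 to 0.41), Slc38a3 (-0.20 to 0.09) and Slc43a1 (-0.07 to 0.21). None of these was past a threshold in the main test, and the cause was not tested. Signal near the lowest value limits the 18 genes that were there on all arrays and the size of any difference with a tissue there.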
